A study of Mus musculus with 8 samples.

Results

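Integrins, laminins and the other genes of the basement membrane were followed in primary cells of mouse ovarian follicles, through a list of 34 genes. The list was chosen with earlier results of these data known and was matched to the arrays by mouse Entrez gene ID. All 34 were among the 24232 genes on the array. Of these 34, 27 passed the filter on low signal, a median scaled signal of at least 10, as did 15645 genes in all. The cells came from preantral follicles of Swiss mice, 8 weeks old, and each replicate was a pool of 5 mice. The follicles were picked by hand, dispersed and kept as a monolayer to a total of 9 days, the last days in hormone-free medium with charcoal-treated serum. All cells were transfected with 12 pmol of siRNA together with a plasmid for a red fluorescent protein. The siRNA was either a control siRNA with no target or FOXL2 siRNA, against the messenger RNA of the transcription factor FOXL2. For the 10 h before lysis they received 100 nM 17β-estradiol (E2) or its vehicle. The study's text places the 24 h of siRNA treatment before E2 was added, whereas the sample labels can be read as 24 h up to lysis. Each siRNA was thus combined with vehicle and with E2, which gave 4 groups of 2 arrays. Levels are given as the log2 of the array signal after scaling, and a difference of 1 on that scale is a doubling.

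The basement membrane is the sheet of matrix on which epithelia rest, and it encloses the granulosa cells of each ovarian follicle. Laminins are trimers of an alpha, a beta and a gamma chain and form its first network, collagen IV forms another, and nidogens and the proteoglycans perlecan and agrin join the networks to each other and to cells. Integrins are receptors made of an alpha and a beta chain, and the alpha chain largely sets whether the pair binds laminin, collagen, or ligands carrying the RGD motif such as fibronectin and vitronectin. Dystroglycan is a laminin receptor of another kind, which binds through sugar chains on its outer subunit.

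Over the genes kept, replicate arrays of a group correlated at 0.989 to 0.992. Foxl2 itself was not lower at the gene level in the arrays labelled FOXL2 siRNA, at 12.97 to 13.41 against 12.77 to 13.46 with control siRNA (change 0.18, SE 0.10, adjusted p = 0.334). Its 2 probes went different ways: one overlapped between the siRNAs, and the other fell by 0.97 on the log2 scale (adjusted p = 0.020 in a fit of single probes). Sox9, a gene of the testis pathway, rose by 2.05 and Fst, which encodes follistatin, fell by 2.02 on the log2 scale, with no overlap between arrays. The groups are therefore named by their labels. Of 9 granulosa cell markers, 6 were well above background on all 8 arrays, by the flag that the scanner software sets per spot, whereas Fshr and Amh were not on any. Oocyte markers were near absent, with 7 of 8 having no array well above background, and 4 of 7 endothelial markers were likewise below it. Markers of the ovarian surface epithelium moved with the siRNA label: 4 of 6 rose, and their summed log2 signal was 14.12 to 14.29 with control siRNA and 14.65 to 14.79 in the arrays labelled FOXL2 siRNA. Krt7 and Krt19 of that list were not called. The sum of 6 Sertoli cell markers was 11.52 to 11.95 against 12.55 to 12.85, and 3 of them (Sox9, Sox8 and Dhh) rose. The sum of the granulosa markers was 16.15 to 16.33 against 16.20 to 16.34, with Hsd17b1 and Esr2 lower. Of the stromal fibroblast markers, 1 of 4 kept rose, Col3a1, and the sums overlapped, at 12.64 to 13.45 against 13.08 to 13.97. Of the theca markers, 1 of 3 kept rose, Aldh1a1, with sums of 17.32 to 17.51 against 17.80 to 18.01, and 0 markers of leukocytes or of pericytes and smooth muscle were called. The part of these markers in the results below was not tested. In RNA from a mixed culture, fewer cells of a type and less RNA per cell cannot be told apart.

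Promoter windows of RefSeq (build GRCm38.p6) were found for 24 of the 34 genes, each covering 250 bases before and 50 after an annotated start. The forkhead heptamer TGTTTAC, on either strand, was present in the windows of 0 of the 24 genes and of 4.05% of all 27025 genes in the table. The heptamer GTCAAGG, described for FOXL2, was found in 1 of the 24, Lama2, where its first base lay 84 bases before the start (position -84) on the opposite strand. It occurred in 3.65% of all genes. The GC box GGGCGG, searched after the values had been seen and on either strand, was present in 14 of the 24 and in 38.2% of all genes. The median GC content was 60.7% over the windows of the members and 52.7% over all windows, and its part in these shares was not tested. The stretches of 250 bases before the start are shown for 2 receptor genes that were lower, Itga2 and Itgb5, and for 2 genes that were higher, Itga3 and Hspg2. They are given so that the letters of both sets can be compared. Capitals mark GC boxes on either strand, of which the stretch of Itga2 held 0, those of Itgb5 and Itga3 3 each and that of Hspg2 5. Itga2 has a GC box at position 3 after the start, outside the stretch shown, and is counted among the 14.
Itga2 (chr13:114932101-114932350, minus strand): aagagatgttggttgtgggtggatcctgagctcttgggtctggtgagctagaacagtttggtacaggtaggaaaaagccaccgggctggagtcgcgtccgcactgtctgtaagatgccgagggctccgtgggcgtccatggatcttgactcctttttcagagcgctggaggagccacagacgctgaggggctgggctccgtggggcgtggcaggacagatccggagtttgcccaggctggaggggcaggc
Itgb5 (chr16:33829415-33829664, plus strand): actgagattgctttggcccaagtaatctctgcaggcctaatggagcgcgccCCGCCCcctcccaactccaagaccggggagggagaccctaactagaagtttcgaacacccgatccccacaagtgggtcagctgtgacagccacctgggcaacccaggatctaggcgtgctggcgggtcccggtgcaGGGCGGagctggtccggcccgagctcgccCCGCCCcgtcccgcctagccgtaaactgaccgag
Itga3 (chr11:95076715-95076964, minus strand): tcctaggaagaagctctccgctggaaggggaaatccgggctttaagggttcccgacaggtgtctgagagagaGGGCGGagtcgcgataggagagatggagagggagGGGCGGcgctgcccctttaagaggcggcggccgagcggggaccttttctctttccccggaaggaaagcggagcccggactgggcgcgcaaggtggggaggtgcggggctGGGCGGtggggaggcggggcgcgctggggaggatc
Hspg2 (chr4:137468553-137468802, plus strand): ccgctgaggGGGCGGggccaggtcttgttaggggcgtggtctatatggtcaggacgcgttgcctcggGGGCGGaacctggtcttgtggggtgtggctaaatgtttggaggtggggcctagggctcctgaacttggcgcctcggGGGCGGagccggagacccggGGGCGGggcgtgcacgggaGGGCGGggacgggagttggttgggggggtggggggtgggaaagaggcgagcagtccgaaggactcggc
A match of these letters is a description of the sequence and not a bound site.

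The first question was how these genes differed between the siRNA labels over both treatments. Of the 27 members kept, 14 passed the limma test at an adjusted p under 0.05 (called in what follows), 7 higher and 7 lower in the arrays labelled FOXL2 siRNA. All 3 integrin alpha chains classed here as laminin-binding (Itga3, Itga6 and Itga7) rose, together with the laminin chain Lama4, nidogen 1, perlecan and agrin. The genes that fell were the collagen-binding alpha chains Itga2 and Itga11, Itga9, the beta chains Itgb3 and Itgb5, the laminin chain Lama1 and dystroglycan. The largest fall was 6.15-fold, for Itga2, and the largest rise 2.25-fold, for Itga7. Over all 15645 genes kept, 12.6% were called, 6.39% higher and 6.18% lower. The members were chosen with earlier results of these data known, so setting them against all genes is no independent comparison. The median change of the members was 0.06 and its median size, regardless of sign, 0.42 on the log2 scale, against a median size of 0.15 over all genes. The 14 called members were well above background on every array, and for each of them the 4 arrays labelled FOXL2 siRNA lay all above or all below the 4 control siRNA arrays. In all, the labels did not overlap for 15 of the 27 members, the one beyond the 14 being Lamc1, and for 20.9% of all genes. When each of the 8 arrays was left out in turn, 10 of the 14 stayed called every time. The exceptions were Itga9, Agrn, Nid1 and Hspg2, described below.

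**Figure D1:**
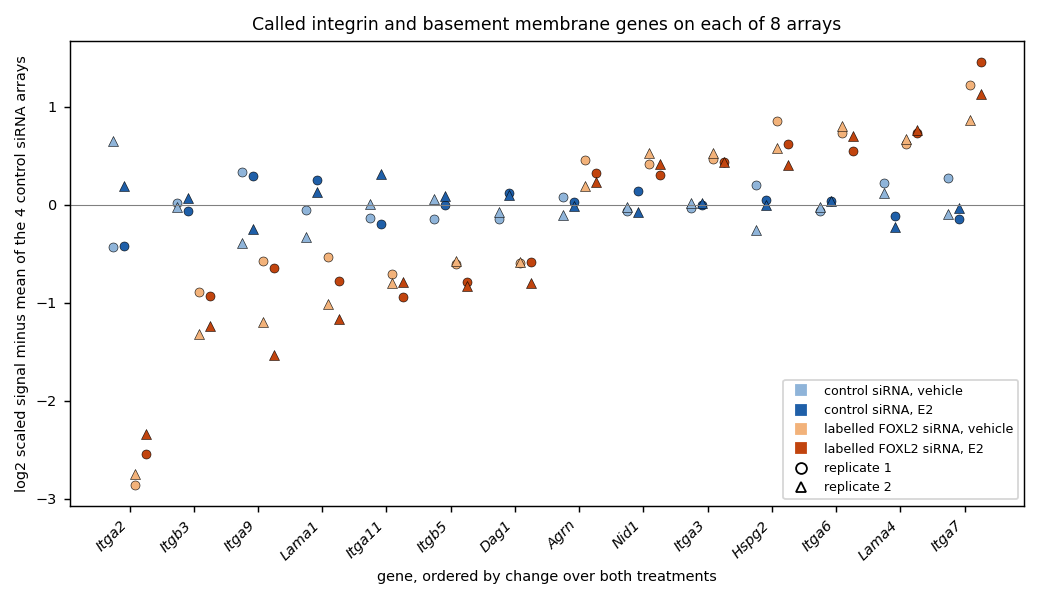
Log2 scaled signal of the 14 called genes on each of the 8 arrays, with the mean of the 4 control siRNA arrays of the gene subtracted (vertical axis), the genes being ordered by their change over both treatments. Colours give the group and symbols the replicate number; within every gene the arrays labelled FOXL2 siRNA do not overlap with the control siRNA arrays, and Itga2 lies furthest below them.

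The 3 integrin alpha chains classed here as laminin-binding were all higher in the arrays labelled FOXL2 siRNA. Chains classed as collagen-binding were not counted among them, whatever else they bind. Itga6, a subunit of the main laminin receptors of epithelia, stood at 14.32 and 14.36 on the vehicle arrays and at 14.42 and 14.42 on the E2 arrays of the control siRNA. Under the FOXL2 siRNA label it stood at 15.11 and 15.18 with vehicle and at 14.93 and 15.09 with E2. The lowest array of the FOXL2 siRNA label thus lay above the highest control array by several times the spread among the control arrays. The change was 0.70 (SE 0.06, 1.62-fold, adjusted p = 0.000523), and both of its probes rose, by 0.69 and 0.71. Itga3, which also binds laminin as a pair with beta 1, was at 9.73, 9.77, 9.75 and 9.77 on the control arrays (vehicle replicates 1 and 2, then E2 replicates 1 and 2). The arrays labelled FOXL2 siRNA gave 10.22, 10.28, 10.20 and 10.19 in the same order. This rise was small and even among replicates, 0.47 (SE 0.06, 1.38-fold, adjusted p = 0.00256). Itga7, known as the laminin receptor of muscle, was at 9.61, 9.25, 9.20 and 9.31 on the control arrays and at 10.56, 10.21, 10.80 and 10.47 on the others. Its rise of 1.17 (SE 0.12, adjusted p = 0.00121) was 2.25-fold.

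Among the 4 collagen-binding alpha chains, 2 fell and the other 2 were not called. Itga2, the alpha chain of the receptor for collagen known from platelets and epithelia, was at 7.22 and 8.30 with control siRNA and vehicle and at 7.22 and 7.84 with control siRNA and E2. It was at 4.79 and 4.90 with FOXL2 siRNA and vehicle and at 5.10 and 5.30 with FOXL2 siRNA and E2. Both treatments showed the gap, and the replicates were closer to each other under the FOXL2 siRNA label than under control siRNA. It fell by 2.62 on the log2 scale (SE 0.25, adjusted p = 0.000832), which left 16.3% of the control signal. With normexp background correction it was smaller, at -1.46 (adjusted p = 0.0013). Itga11, the collagen receptor chain of fibroblast-like cells, was at 11.17, 11.32, 11.11 and 11.63 on the control arrays and at 10.60, 10.51, 10.37 and 10.52 on the others, a change of -0.81 (SE 0.12, adjusted p = 0.00400). Itga1, the neighbour of Itga2 on chromosome 13, spanned 5.39 to 6.84 over the 8 arrays with overlapping groups. Its 2 probes differed in sign, at -0.74 and 0.29, and neither was called. Itga10 spanned 8.16 to 8.42, with a change of 0.03 (95% interval -0.17 to 0.23).

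The alpha chains that bind RGD ligands showed no call. Itgav, which pairs with several beta chains to bind vitronectin, changed by 0.24 (95% interval -0.14 to 0.62), and the fibronectin receptor chain Itga5 by 0.05 (-0.34 to 0.45). Itga8 was below the filter on signal, with 0 arrays well above background. Itgb3 and Itgb5, which can pair with Itgav, fell, whereas Itgb1 was not called. Itgb3, the beta chain of the classical vitronectin receptor and of the platelet fibrinogen receptor, was at 10.82, 10.77, 10.73 and 10.87 on the control arrays. It was at 9.91, 9.48, 9.87 and 9.56 on the arrays labelled FOXL2 siRNA, with replicate 1 above replicate 2 under both treatments. Itgb3 fell by 1.09 on the log2 scale (SE 0.11, 2.13-fold, adjusted p = 0.00115). Its brighter probe changed by -1.11, and its dimmer one by -0.81 with overlapping arrays and an adjusted p of 0.207. Itgb5, another vitronectin receptor chain, was at 15.71, 15.91, 15.85 and 15.94 against 15.25, 15.28, 15.06 and 15.03. It fell by 0.70 (SE 0.06, 1.62-fold, adjusted p = 0.000737). Itgb1, the common partner of most alpha chains listed here, spanned 10.78 to 11.06 over all 8 arrays and changed by 0.07 (95% interval -0.10 to 0.24). Itgb4, which pairs with Itga6 in hemidesmosomes, changed by -0.11 (95% interval -0.60 to 0.38).

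Itga9, whose product binds tenascin C and other ligands, was at 9.92 and 9.19 on the vehicle arrays and at 9.88 and 9.34 on the E2 arrays of the control siRNA. Under the FOXL2 siRNA label it was at 9.01 and 8.39 with vehicle and at 8.94 and 8.04 with E2. The labels did not overlap, but within every group replicate 2 was lower than replicate 1. The change of -0.99 (SE 0.26, adjusted p = 0.0488) therefore only just passed, and it stayed called in just 2 of the 8 fits that left out an array, those without control siRNA, vehicle replicate 2 or FOXL2 siRNA, E2 replicate 1. The adjusted p was 0.0570 to 0.147 in the other 6. With the replicate number as a block in the limma fit, the change of Itga9 had an SE of 0.07 and an adjusted p of 1.46e-06. Its relative Itga4 was below the filter too, with 0 arrays well above background.

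**Figure D2:**
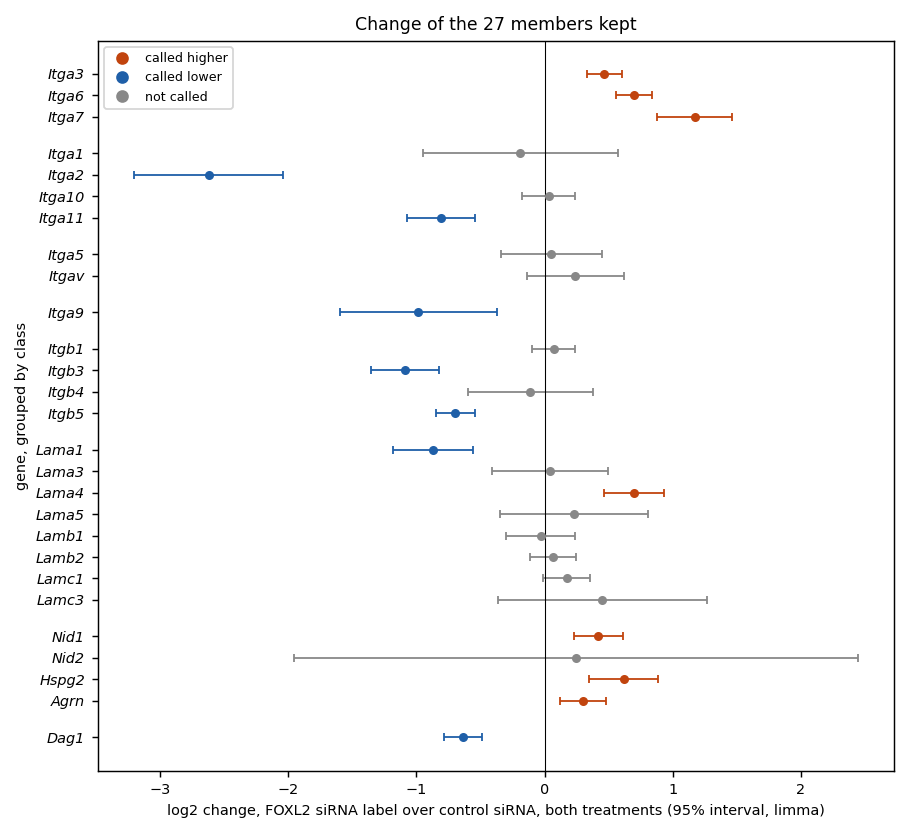
Change over both treatments of the 27 members kept, as log2 difference between arrays labelled FOXL2 siRNA and control siRNA arrays with its 95% limma interval (horizontal axis), grouped by class. The 3 alpha chains classed as laminin-binding, at the top, all lie above 0, Itga2 lies lowest, and the interval of Nid2 is the widest, from -1.95 to 2.45.

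Of the 8 laminin chains kept, 1 rose and 1 fell, and both were alpha chains. Lama1, the alpha chain of the laminin of early embryos and of some epithelial basement membranes, was at 15.58 and 15.30 on the vehicle arrays and at 15.89 and 15.77 on the E2 arrays of the control siRNA. Under the FOXL2 siRNA label it was at 15.10 and 14.63 with vehicle and at 14.86 and 14.47 with E2. The gap between the labels was wider among the E2 arrays than among the vehicle arrays. Over both treatments the change was -0.87 (SE 0.13, 1.83-fold, adjusted p = 0.00538). Lama4, a chain of vessel and muscle laminins, went the other way, with 6.50, 6.39, 6.15 and 6.05 on the control arrays and 6.89, 6.95, 7.01 and 7.04 on the others. Its rise was 0.70 (SE 0.10, 1.62-fold, adjusted p = 0.00432). The endothelial markers beside it summed to 10.16 to 10.84 in log2 signal with control siRNA and to 10.65 to 10.94 in the arrays labelled FOXL2 siRNA, with 0 of 2 kept called.

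The beta and gamma chains of the common laminins were not called. Lamb1 changed by -0.03 (95% interval -0.30 to 0.24), Lamb2 by 0.06 (-0.11 to 0.24) and Lamc1 by 0.17 (-0.01 to 0.35). Lamc1 was nevertheless higher on all 4 arrays labelled FOXL2 siRNA, at 11.67 to 11.75 against 11.42 to 11.65. Lama5, the chain of most adult epithelial basement membranes, changed by 0.23 (95% interval -0.35 to 0.80), Lama3 by 0.04 (-0.41 to 0.50) and Lamc3, which was well above background on 7 arrays, by 0.45 (-0.37 to 1.26). For Lama3, 1 of the 2 probes had 0 arrays well above background.

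Lama2, the alpha chain of muscle and nerve laminins, lay below the filter and was not in the fit. It was at 2.74, 2.87, 2.22 and 2.06 on the control arrays, none of them well above background. It was at 4.18, 3.90, 3.38 and 4.40 on the arrays labelled FOXL2 siRNA, of which 3 were well above background. No lower bound of the ratio is given. With vehicle, no single probe of Lama2 was well above background on both arrays labelled FOXL2 siRNA. With E2, only 1 of 2 arrays labelled FOXL2 siRNA measured the gene. Of its 2 probes, 1 overlapped between the labels, at 1.64 to 2.85 with control siRNA against 2.38 to 4.68. The other did not, at 2.38 to 3.11 against 3.41 to 4.40. Lamb3 reached 5.19 on FOXL2 siRNA, vehicle replicate 2, the one array on which it was well above background, and 1.38 to 3.07 on the other 7. The beta chain Itgb8 was well above background on FOXL2 siRNA, E2 replicate 1 alone, at 3.90. Itgb6 and Itgb7, like Itga4 and Itga8, were not on any array.

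The genes that link the laminin and collagen networks rose, with one exception that could not be resolved. Nid1, nidogen 1, which bridges laminin and collagen IV, was at 8.33, 8.37, 8.54 and 8.32 on the control arrays and at 8.81, 8.92, 8.70 and 8.81 on the others. Its rise was 0.42 (SE 0.08, 1.34-fold, adjusted p = 0.0159). The adjusted p was 0.0623 without control siRNA, E2 replicate 2, 0.0631 without FOXL2 siRNA, vehicle replicate 2 and 0.0649 without FOXL2 siRNA, E2 replicate 2. Of its 3 probes, 2 rose by 0.71 and 0.42, the latter called, and the dimmest changed by -0.26. Hspg2, perlecan, the heparan sulfate proteoglycan of most basement membranes, was at 11.96, 11.50, 11.81 and 11.75 against 12.62, 12.33, 12.38 and 12.16. Both of its probes rose, by 0.62 and 0.38, with only the former called. It rose by 0.62 (SE 0.12, 1.53-fold, adjusted p = 0.0130), with an adjusted p of 0.0510 without control siRNA, E2 replicate 2. Agrn, agrin, the proteoglycan best known from the neuromuscular junction, was at 13.98, 13.80, 13.94 and 13.89 against 14.36, 14.10, 14.23 and 14.14. Its 2 probes changed by 0.30 (adjusted p = 0.0530) and 0.20 (adjusted p = 0.408) in a fit of single probes, so neither was called. The change of the gene was the smallest of those called, 0.30 (SE 0.08, 1.23-fold, adjusted p = 0.0417). It stayed called in 2 of the 8 fits that left out an array, those without control siRNA, vehicle replicate 1 or FOXL2 siRNA, vehicle replicate 2, and the adjusted p was 0.091 to 0.127 in the other 6.

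Dag1, which encodes both subunits of dystroglycan, was at 13.24 and 13.31 with control siRNA and vehicle and at 13.50 and 13.49 with control siRNA and E2. It was at 12.79 and 12.80 with FOXL2 siRNA and vehicle and at 12.81 and 12.59 with FOXL2 siRNA and E2. All 4 arrays labelled FOXL2 siRNA lay below the lowest control array. Its signal fell by 0.64 on the log2 scale (SE 0.06, 1.55-fold, adjusted p = 0.00107). Dag1 thus fell while Itga3, Itga6 and Itga7 rose.

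The next comparison took each treatment alone, where 2 arrays stood against 2. With vehicle, 10 members were called, 5 higher and 5 lower, against 6.53% of all genes. With E2, also 10 were called, 4 higher and 6 lower, against 4.38% of all genes. Of these, 8 were called with both treatments and all 8 in the same direction, namely Itga3, Itga6, Itga7, Itga2, Itga11, Itgb3, Itgb5 and Dag1. Nid1 and Hspg2 were called with vehicle, Lama1 and Lama4 with E2, and Itga9 and Agrn with neither. All 14 members called over both treatments had the same sign in each. Itgb3 changed by -1.10 with vehicle and -1.09 with E2, the closest match. Itga2 changed by -2.91 (SE 0.35) and -2.33, and Itga7 by 0.96 (SE 0.18) and 1.38. Lama1 changed by -0.58 (SE 0.19) with vehicle and -1.17 with E2, and Lama4 by 0.48 (SE 0.14) and 0.92, but limma's test of the difference called none of them.

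**Figure D3:**
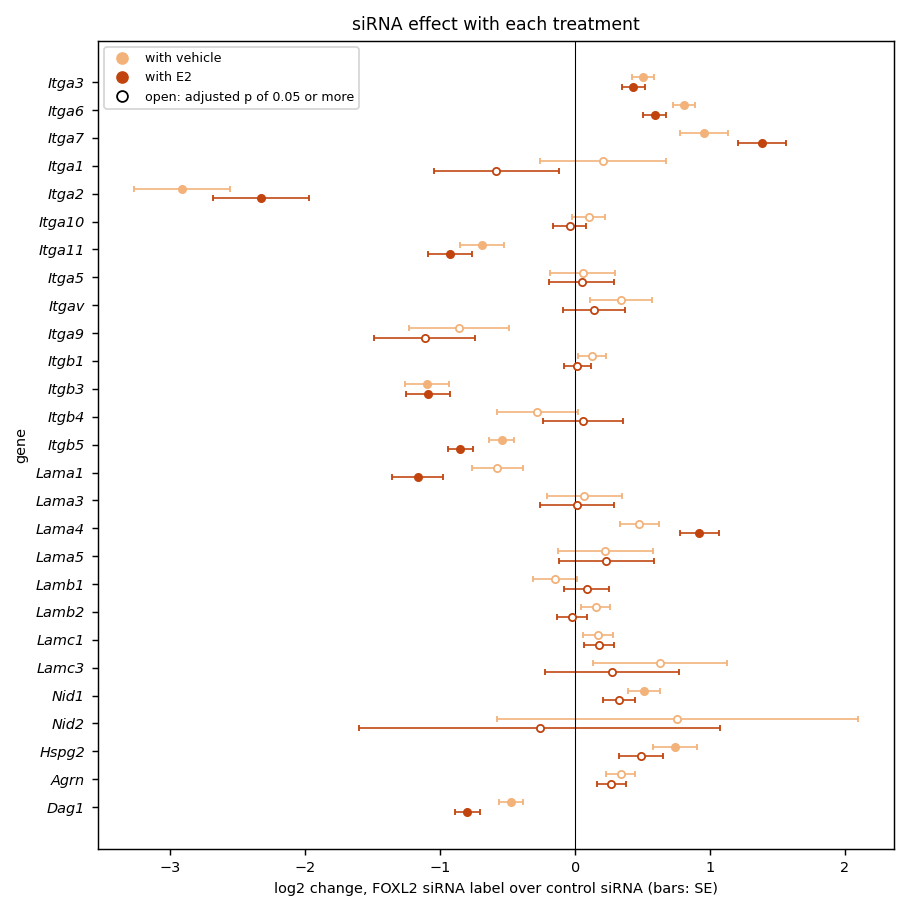
Log2 difference between arrays labelled FOXL2 siRNA and control siRNA arrays for the 27 members kept, with vehicle and with E2 (horizontal axis), with the SE as bars and open symbols where the adjusted p was 0.05 or more. The 8 genes called with both treatments have filled symbols on the same side of 0 in both.

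With the replicate number as a block, 15 members were called with vehicle and 13 with E2. The share of all genes called rose as well, to 18.7% with vehicle and 14.9% with E2. The labels give a pool of mice per replicate. They do not say that same-numbered arrays of different groups shared a pool, and the p-values with the block rest on that reading. The additional calls with vehicle were Itga9 (-0.86, SE 0.11, adjusted p = 0.000124), Lama1 (adjusted p = 0.00102), Agrn (adjusted p = 0.0132), Nid2 (0.76, SE 0.20, adjusted p = 0.0220) and Lama4 (adjusted p = 0.0381). With E2 they were Itga9 (-1.12, adjusted p = 2.36e-05), Hspg2 (adjusted p = 0.00435) and Agrn (adjusted p = 0.0480). Over both treatments the block gave adjusted p-values of 1.46e-06 for Itga9, 3.17e-05 for Hspg2, 0.00167 for Nid1 and 0.00211 for Agrn. In that fit 2214 of all 15645 genes were called higher and 2113 lower. Without the block, leaving out 1 array of the groups compared lowered the counts of members and of all genes called: with vehicle, 6 members stayed called without control siRNA replicate 1, 2 without control siRNA replicate 2, 3 without FOXL2 siRNA replicate 1 and 4 without FOXL2 siRNA replicate 2. Over all genes the shares were 4.03%, 2.29%, 3.11% and 1.98%. With E2 the counts of members were 3, 3, 6 and 3 in the same order, and 130 to 390 genes were called in all, against 686 with all arrays. Itga2 and Itga6 with vehicle, and Itgb5 and Dag1 with E2, stayed called in all 8 fits.

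The effect of E2 against vehicle was the other arm of the design, and it called no member with either siRNA. With control siRNA, 0 of 27 were called against 0.0192% of all genes, and 2 of 27 had an unadjusted p under 0.05 against 4.58% of all genes. These were Dag1, at 0.22 (SE 0.09), and Lama4, at -0.34 (SE 0.14). With FOXL2 siRNA, 0 were called against 0.0128%, and 1 had an unadjusted p under 0.05, Itgb5 at -0.22 (SE 0.09). The changes ranged from -0.34 to 0.56 with control siRNA and from -0.48 to 0.36 with FOXL2 siRNA. The highest value with control siRNA, 0.56, was that of Nid2, whose SE was 1.34 and, with the replicate block, 0.20 (adjusted p = 0.320 with the block).

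**Figure D4:**
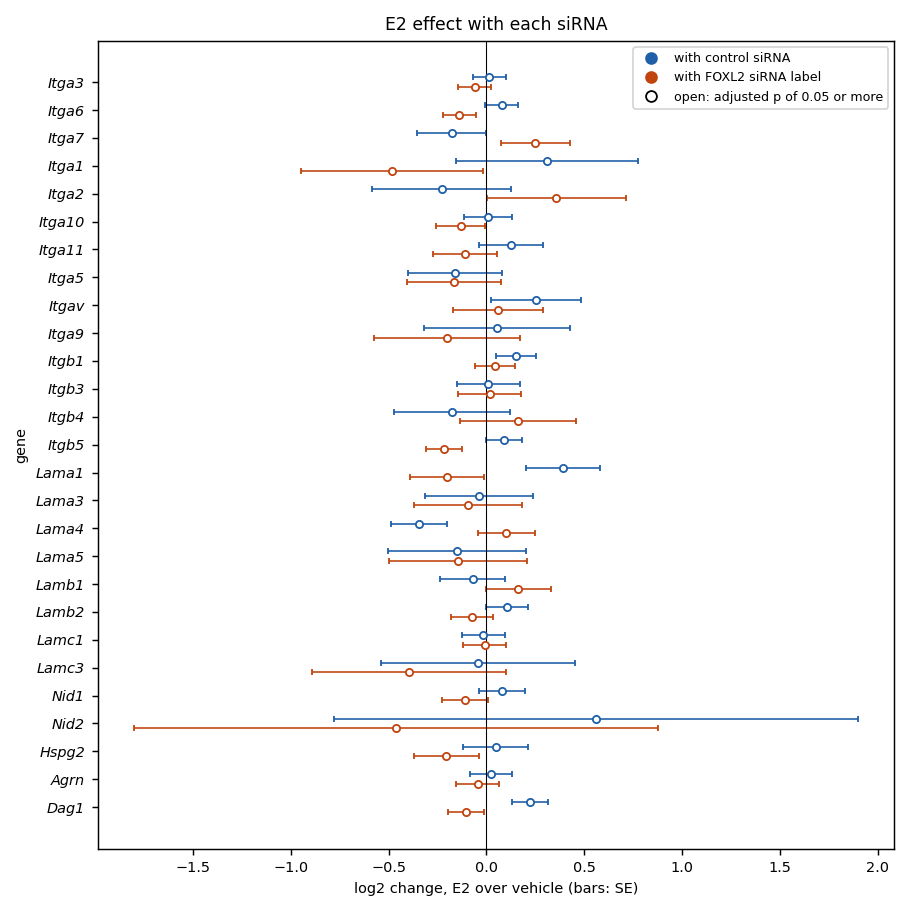
Log2 difference between E2 and vehicle for the 27 members kept, with control siRNA and with FOXL2 siRNA (horizontal axis), with the SE as bars. All symbols are open, since no adjusted p was under 0.05; Lama1 lies at 0.39 with control siRNA and at -0.20 with FOXL2 siRNA.

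The difference of the E2 effects between the siRNAs called 0 of the 27 members, against 0.243% of all genes, and the lowest adjusted p was 0.958, for Dag1. Dag1 and Itgb5 had an unadjusted p under 0.05, with differences of -0.32 and -0.31. With the replicate block, 1 member was called, Lama1, against 2.12% of all genes. Its E2 effect was 0.39 with control siRNA and -0.20 with FOXL2 siRNA, a difference of -0.59 (SE 0.13, adjusted p = 0.0442 with the block). On the arrays, both E2 values of Lama1 lay above both vehicle values with control siRNA, and they overlapped with them under the FOXL2 siRNA label.

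Some members differed more between the replicate numbers than between the labels. Nid2, nidogen 2, was at 6.60, 7.16, 7.23 and 7.07 on the replicate 1 arrays of the 4 groups (control siRNA with vehicle and with E2, then FOXL2 siRNA with vehicle and with E2). On the replicate 2 arrays it was at 4.02, 4.58, 4.91 and 4.15. Replicate 2 minus replicate 1 was therefore -2.92 to -2.32 in every group, whereas the change with the siRNA label was 0.25 (SE 0.95, and 0.14 with the replicate block, adjusted p = 0.239). Itga1 and Itga9 were also lower in replicate 2 of every group, with differences of -1.33 to -0.59 and of -0.90 to -0.54. For Itga9, unlike Nid2 and Itga1, the change with the siRNA label was the larger, at -0.99. Nid2, Itga1 and Itga9 were the 3 of 27 members that differed by over 0.5 in the same direction in all 4 groups, as did 2.52% of all genes.

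**Figure D5:**
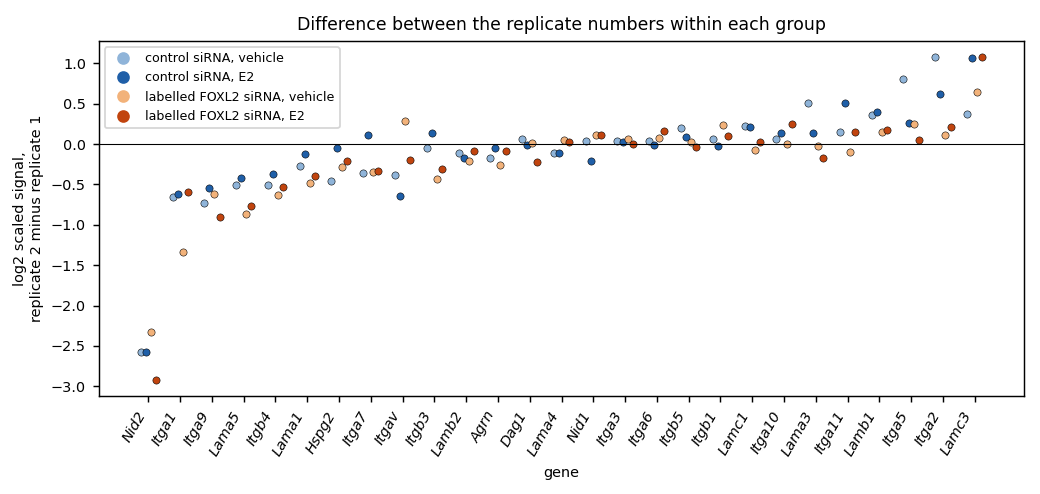
Log2 scaled signal of replicate 2 minus replicate 1 within each of the 4 groups (vertical axis) for the 27 members kept, ordered by the mean of the 4 differences. Nid2 lies at -2.32 to -2.92 in all groups, and Itga3 and Itga6 lie near 0.

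Other genes of the pathway were read from further lists. Of 9 basement membrane collagens, 8 were kept and 3 rose over both treatments, with a list median of 0.41: Col4a6 (1.01, SE 0.07), Col4a5 (0.98, SE 0.09) and Col4a1 (0.39, SE 0.10), all chains of collagen IV. None fell. Of 14 other basement membrane proteins on the array, 10 were kept, and Fbln2, fibulin 2, rose (1.21, SE 0.24) while Frem2 (-1.29, SE 0.15) and Smoc1 (-0.59, SE 0.14) fell. Of 12 further integrin ligands, 8 were kept. Thbs1, thrombospondin 1, fell (-1.17, SE 0.08), and Mfge8, an RGD protein that binds the integrins of Itgav, rose (0.42, SE 0.08). Of 25 genes of focal adhesions, the sites where integrins are tied to actin, 22 were kept, 7 rose and 0 fell, with a list median of 0.17. The largest of these rises were those of Tns1 (0.70, SE 0.17), Zyx (0.69, SE 0.06) and Bcar1 (0.66, SE 0.12). Of 16 partners of dystroglycan and genes of its glycosylation, 13 were kept, 0 rose and 2 fell, with a list median of -0.10. Pomt1, an enzyme that acts in building the laminin-binding sugar of dystroglycan, fell (-0.74, SE 0.07). The median change over all genes was -0.0026, and 6.39% of them were called higher and 6.18% lower over both treatments. The counts for the integrin ligands, the other basement membrane proteins and the dystroglycan list are too small to set against these shares.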

How the data were processed

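RNA of 8 samples was hybridised to 8 one-colour Agilent arrays on 1 slide with 1 scan, so no slide or scan effect could be tested. Per the file headers, the deposited files hold spot intensity from Agilent Feature Extraction. The authors also deposited a table on a log2 scale, scaled per array to its 75th percentile, with a mean per gene. Here, 3671 control spots and 42 non-uniform probes were left out and 55639 probes scaled to each array's 75th percentile (275 to 367). Probes of an Entrez ID in the authors' table were averaged, the gene kept if its median scaled signal was at least 10, and log2 taken. RefSeq gave the symbols.

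Groups came from the sample titles. limma 3.58.1 (R 4.3.3) fitted 4 group means to 8 arrays with an intensity trend and 4 residual degrees of freedom; p-values are two-sided and adjusted by Benjamini-Hochberg over 15645 genes, with a threshold of 0.05. The fit was tested on simulated data. The number of arrays, 2 per group, limits precision. Deviations of same-numbered arrays from their group means correlated at 0.33 to 0.45 in all 6 pairs of groups. The labels give a pool of 5 mice per replicate but do not state that groups shared it. A replicate block was therefore fitted only as an alternative. Others were no filter, a filter on probes well above background, normexp (offset 50), quantile normalization, the median of each array subtracted, the brightest probe, no intensity trend, only the groups compared, the authors' table and leaving out each array. Normexp used the median spot signal and local background, since the files hold no mean signal. Members and lists were chosen with earlier results of these data known. All 34 members are accounted for, with values per array for those called in any comparison. Some genes of the further lists are not reported here. A gene counted as well above background on an array if any of its probes was so. Tables and plots were made with Python 3.11.15 (numpy 2.4.6, pandas 2.3.3, matplotlib 3.10.9).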

Additional observations from a re-analysis of the deposited data

Results flagged for a closer look

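At the gene level, Lama4 and Itga6 each moved in opposite directions with E2 under the 2 siRNAs. For Lama4 both E2 arrays lay below both vehicle arrays with control siRNA and above them with FOXL2 siRNA. The difference of its E2 effects was 0.44 (SE 0.20). For Itga6 the order was the reverse, with a difference of -0.22 (SE 0.12). Only 1 of the 2 probes of Itga6 showed that order, with a difference of -0.27. The other overlapped between E2 and vehicle with both siRNAs, with a difference of -0.02. Neither the difference of Lama4 nor that of Itga6 was called by limma, and the share of all genes with such an order is not given. For Lama1 the difference was -0.59, and it was called with the replicate block alone (adjusted p = 0.0442). Below the filter, Lama2 was well above background on 3 of the 4 arrays labelled FOXL2 siRNA and on 0 of the 4 control siRNA arrays. Lamb3 and Itgb8 were so on 1 array labelled FOXL2 siRNA each and on 0 control siRNA arrays.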

How the results depend on the processing

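No member that was called in any comparison changed sign under any of the alternatives (598 single values for 34 called changes), and 105 of these values lost their call. Over both treatments the count of 14 called members was 12 to 15 under the 9 other settings and 10 to 13 when 1 array was left out. Of the 14, 12 stayed called under all 9, the exceptions being Itga9 (highest adjusted p 0.0967) and Agrn (0.0923), both lost with no filter and with no intensity trend, and Itga9 also with quantile normalization and with the median subtracted. With vehicle the count of 10 fell to 5 with no intensity trend and to 4 when only the groups compared were fitted, and was 2 to 8 when 1 array was left out. With E2 it was 7 to 13 under the other settings and 3 to 9 when 1 array was left out. With the replicate block 1 member, Lama1, was called for the difference of the E2 effects, and the block changed no other call than those given above. The counts for E2 against vehicle with either siRNA were 0 under all settings and 0 to 0 when 1 array was left out, as was the count for the difference of the E2 effects without an array. The count of 15 came with the filter on probes well above background and includes Lama2, which passed that filter through the arrays labelled FOXL2 siRNA alone, so its call is no support for a difference. Only the groups compared could not be fitted for the comparison over both treatments or for the difference of the E2 effects, which use all 4 groups. Where a fit leaves 1 array in a group, that array is assumed to vary like the others. The cause of these differences was not tested.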
